A study of Mus musculus with 23 samples.

Results

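The 7 genes described here are Gdpd3, Rps13, its processed copies Rps13-ps1 and Rps13-ps2, Ahcy, its single-exon copy Gm4737, and the processed pseudogene Gm10167, out of 45706 rows of a hippocampal count table. They were selected on their read counts per library, because earlier results of these data showed levels that fell into steps between libraries, or near-identical copies that may share reads. All 7 passed the filter on low counts, as did 15828 genes in all. The levels and steps given below are the values that chose these genes and are a description, with no test of the steps.

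The study sequenced RNA from the hippocampus of female mice that carry the Ins2 gene (Ins2+/+, WT, 12 libraries) or lack it (Ins2-/-, KO, 11 libraries). Ins2 encodes one of the insulins of the mouse. The labels give genotype, sex and tissue, and give no treatment, age, strain, litter, batch or day and no account of how the deletion was made. They also do not say that each library came from a separate animal, so p-values measure the spread between these libraries only.

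Library totals ran from 13792274 to 22953261 counts. Ins2 had 0 counts across KO, where 3 counts over the pooled libraries would be 0.0156 CPM, and 26 counts in 7 of 12 WT libraries, 18 of them in 1 library. CPM are counts scaled per library by its total and a TMM factor, and such limits cover counting error only. The tissue label was checked against marker lists: the 9 dentate gyrus genes summed to 476 to 893 CPM in KO libraries other than library 8 and to 545 to 887 CPM in WT libraries, against 309 CPM in KO library 8. The 12 hypothalamic genes summed to 1580 CPM in KO library 8, against 12.4 to 28.3 CPM in WT and 14.9 to 25.6 CPM in the other KO libraries. The 10 choroid plexus genes ran from 165 to 29100 CPM and were high in 5 libraries (WT 14 and 17, KO 2, 6 and 12). In such bulk tissue, fewer cells of a type and less RNA per cell cannot be told apart.

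Processed pseudogenes and retrogenes arise when a spliced messenger RNA is copied back into the genome, so they lack introns and can match their parent gene almost base for base. Short reads from a shared stretch can then be placed on either locus, and a counting program may divide them. Rps13 encodes a protein of the small ribosomal subunit and is active in every cell. Ahcy encodes adenosylhomocysteinase, which splits S-adenosylhomocysteine, the by-product of methylation reactions, into adenosine and homocysteine. Gdpd3 encodes a glycerophosphodiester phosphodiesterase that acts as a lysophospholipase D and can yield lysophosphatidic acid.

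All positions are on GRCm38 with the GENCODE M21 annotation. Rps13 (ENSMUSG00000090862) spans 116331505 to 116334195 of chromosome 7, minus strand, 26.3 Mb from Ins2. Rps13-ps1 (ENSMUSG00000066362) spans 87047689 to 87048226 of chromosome 8, plus strand, and Rps13-ps2 (ENSMUSG00000069972) 88530446 to 88530898 of chromosome 7, minus strand. Both copies are annotated as processed pseudogenes of 1 exon, whereas the Rps13 transcript has 6 exons. Rps13-ps1 matched that transcript over 522 bases with 2 mismatches, and Rps13-ps2 over 453 bases with 0 mismatches. The stretch below is shown because it holds both differences, T499C and A517G, which lie in the coding region. Positions are counted from 1 at the 5′ end of the Rps13 transcript, the Rps13 base comes first, and capitals mark the differing bases. The Rps13 line is spliced across an exon junction within chr7:116331560-116332425, minus strand, and the copy lies at chr8:87048095-87048165, plus strand.
Rps13: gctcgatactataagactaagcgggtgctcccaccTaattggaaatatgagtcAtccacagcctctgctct
Rps13-ps1: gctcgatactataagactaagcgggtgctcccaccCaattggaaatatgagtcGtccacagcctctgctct

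The start of the coding region is shown for Rps13-ps2, where no base differed over the whole alignment. The Rps13 line is spliced within chr7:116333767-116334107 and the copy lies at chr7:88530819-88530898, both on the minus strand.
Rps13: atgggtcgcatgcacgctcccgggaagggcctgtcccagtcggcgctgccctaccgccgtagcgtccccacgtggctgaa
Rps13-ps2: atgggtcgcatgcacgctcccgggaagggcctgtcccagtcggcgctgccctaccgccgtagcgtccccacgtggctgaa

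Ahcy (ENSMUSG00000027597) lies on chromosome 2 at 155059310 to 155074497, and Gm4737 (ENSMUSG00000048087), annotated as protein-coding with 1 exon, on chromosome 16 at 46152985 to 46155077, both on the minus strand. The Gm4737 transcript matched that of Ahcy over 2083 bases with 6 mismatches, 4 of them in the coding region. A stretch with C1155T and C1173T is shown because, within the aligned bases, the 2 transcripts can be told apart only where they differ. Positions are counted from 1 at the 5′ end of the Ahcy transcript, and the stretches lie at chr2:155062231-155062301 and chr16:46153928-46153998.
Ahcy: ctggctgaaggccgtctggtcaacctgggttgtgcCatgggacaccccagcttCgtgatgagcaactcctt
Gm4737: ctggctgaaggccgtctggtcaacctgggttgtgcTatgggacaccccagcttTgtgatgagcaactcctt

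Gm10167 (ENSMUSG00000066554) is a processed pseudogene spanning 148182899 to 148184377 of chromosome 5, minus strand, inside Mtus2, which runs on the opposite strand. Mtus2 overlaps it over 1479 bases and averaged 43.9 CPM over the 23 libraries. Without strand in the counting, which no source used here gives, their reads cannot be told apart over these bases.

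The Rps13-ps1 values fell into 3 separate ranges. It had 2.25 to 5.56 CPM in 14 libraries, 34.1 to 48.1 CPM in 6 and 72.4 to 77.3 CPM in 3. In WT libraries the lowest, median and highest values were 2.25, 4.45 and 43.7 CPM, and in KO libraries 3.28, 41.0 and 77.3 CPM. WT 19 was the 1 WT library in the middle range, KO 4, 8, 12, 21 and 22 shared it, and KO 9, 13 and 18 made up the highest range. KO 2, 6 and 16 lay in the low range with the other 11 WT libraries. The genotypes therefore overlapped, with 1 of 12 WT and 8 of 11 KO libraries above the largest gap, or 7 of 10 KO without library 8. That gap was 2.51 on the log2(CPM + 0.5) scale, between 5.56 and 34.1 CPM, and 0.12% of tested genes had a larger one.

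Rps13 itself ran the other way in the same libraries. WT values were 51.5, 91.8 and 103 CPM (lowest, median and highest), and KO values 29.2, 60.9 and 103 CPM. The 3 lowest libraries, at 29.2 to 30.3 CPM, were KO 9, 13 and 18, the libraries with the most Rps13-ps1. The next 6, from 45.6 to 63.0 CPM, were WT 19 and KO 4, 8, 12, 21 and 22, the 6 of the middle range. The other 14 libraries held 77.4 to 103 CPM. Gaps of 0.579 and 0.295 (log2) separated these ranges, and larger first gaps occurred in 3.06% of tested genes.

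Rps13-ps2, identical to Rps13 over its length, moved with Rps13 and not with Rps13-ps1. It was at 0 counts in KO 9, 13 and 18, and a count of 0 allows up to 3 counts. WT values were 0.525, 6.81 and 9.3 CPM, and KO values 0, 1.5 and 7.23 CPM (lowest, median and highest). The 6 libraries of the middle range held 0.525 to 3.21 CPM and the other 14 held 4.16 to 9.3 CPM. WT 19, at 0.525 CPM, was the only WT library in the middle range.

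Summed over the gene and both copies, the steps were gone. The sum was 89.0, 102 and 113 CPM in WT libraries and 82.9, 105 and 114 CPM in KO libraries (lowest, median and highest), so the genotypes spanned nearly the same range. Its coefficient of variation over the 23 libraries was 8.17%, against 33.4% for Rps13, 114% for Rps13-ps1 and 67.5% for Rps13-ps2. The largest gap of the sum was 0.0605 (log2), and 82.6% of tested genes had a larger one. Rps13-ps1 took 2.23% to 5.59% of the summed counts in 14 libraries, 38.8% to 45.7% in 6 and 71.2% to 71.9% in 3. Rps13-ps2 took at most 8.28%, and 0% in KO 9, 13 and 18.

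**Figure D1:**
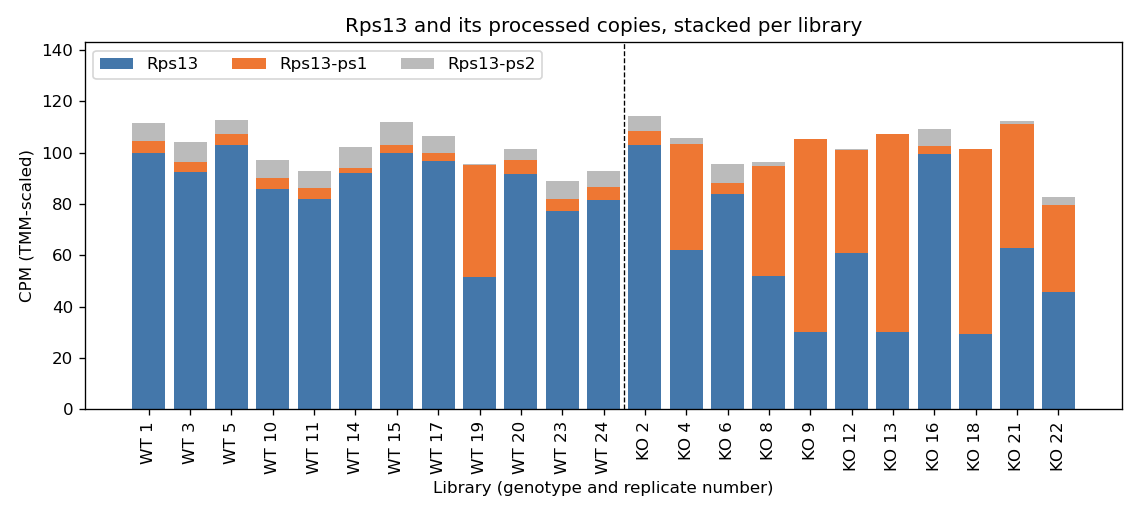
CPM of Rps13, Rps13-ps1 and Rps13-ps2 stacked for each of the 12 WT and 11 KO libraries, with the dashed line between genotypes. The total height stays between 82.9 and 114 CPM, while the Rps13-ps1 part is 34.1 CPM or more in WT 19 and in 8 KO libraries and 5.56 CPM or less in the other 14.

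The Rps13 copies Rps13-ps4, Rps13-ps5 and Gm15483 are no members and were too low to be tested. Rps13-ps4, 99.3% identical to Rps13 over 456 bases, averaged 0.439 ± 0.291 CPM over WT libraries (SD, n = 12) and 0.44 ± 0.325 CPM over KO libraries (SD, n = 11). The other copies averaged at most 0.0534 CPM in either genotype. Adding all of them left the genotype difference of the sum at 0.019 (log2, SE 0.0519).

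Between genotypes, Rps13-ps1 averaged 7.43 ± 11.5 CPM over WT libraries (SD, n = 12) and 40.3 ± 27.5 CPM over KO libraries (SD, n = 11). The log2 fold change was 2.45 (SE 0.571, adjusted p = 0.729 over all genes tested, edgeR). That of Rps13 was -0.55 (SE 0.192, adjusted p = 0.781, edgeR) and that of Rps13-ps2 was -1.25 (SE 0.58, adjusted p = 0.781, edgeR). With limma voom the Rps13-ps2 value was -3.37 (adjusted p = 0.135). With the counts of gene and copies summed before the fit, the log2 fold change was 0.02 (SE 0.0513, adjusted p = 0.93, edgeR), from 102 ± 8.19 CPM over WT libraries (SD, n = 12) to 103 ± 8.87 CPM over KO libraries (SD, n = 11). None of these differences passed the threshold of 0.05 in edgeR, which 0.0126% of all genes tested did. Rps13-ps1 passed it without WT library 19, where its log2 fold change was 3.29 (adjusted p = 0.00153, edgeR), and with DESeq2 (adjusted p = 0.0282); over all its alternatives the adjusted p ran from 0.00153 to 0.963.

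The small ribosomal subunit was read through 32 other genes of its proteins, all tested. No gene of this list passed the threshold in either direction in edgeR, where 0.0126% of all genes tested did. At an unadjusted p below 0.05, 1 was higher and 1 lower in KO. Over all genes tested 3.41% were higher and 2.34% lower, so nothing is read from these counts. The median log2 fold change of the list was 0.0746, against 0.00309 over all genes tested, and 31 of 32 values were positive, under TMM as under RLE scaling. Rps15a, the only negative value, changed by -0.16 (SE 0.0663, adjusted p = 0.781, edgeR), and Rps27 by 0.13 (SE 0.0623, adjusted p = 0.781, edgeR). The value of the summed Rps13 counts, 0.02, was below those of 31 of the 32 genes and above that of Rps15a alone.

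Gdpd3 (ENSMUSG00000030703) spans 126766334 to 126775649 of chromosome 7, plus strand, 15.9 Mb from Ins2. It had no similar transcript on its own strand by the search used, but Gm9967 overlaps it on the opposite strand, over 7568 bases, so without strand in the counting, which no source used here gives, their reads cannot be told apart. Gdpd3 was nearly off or on. In 12 libraries it had 2 to 7.73 estimated counts, 0.0898 to 0.497 CPM, close to the 3 counts that a 0 would allow. In the other 11 it had 36.9 to 155 counts, 2.52 to 8.4 CPM.

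WT values of Gdpd3 were 0.0898, 0.265 and 3.23 CPM and KO values 0.143, 3.63 and 8.4 CPM (lowest, median and highest). Among WT libraries WT 1 and WT 19 lay above the gap, 2 of 12, and among KO libraries all but KO 6 and KO 16, 9 of 11, or 8 of 10 without library 8. The gap was 1.6 (log2), and 0.341% of tested genes had a larger one. Within the upper side the values spread without a comparable second gap, the next being 0.378, between 3.63 and 4.86 CPM. The 5 libraries above that second gap were KO 4, 9, 13, 18 and 21.

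Gm10167 followed the same libraries at low levels. WT values were 0.403, 0.677 and 3.04 CPM and KO values 0.761, 2.91 and 5.21 CPM (lowest, median and highest). WT 1 and WT 19 lay above its largest gap with 8 KO libraries, and KO 4, 6 and 16 below it. The gap, from 1.42 to 2.38 CPM, was 0.589 (log2), and 2.96% of tested genes had a larger one. KO 4, at 1.42 CPM, stood between the ranges, since the second gap of 0.403 lay just below it, above 0.949 CPM. With KO 4 counted above, the same 11 libraries were high as for Gdpd3.

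**Figure D2:**
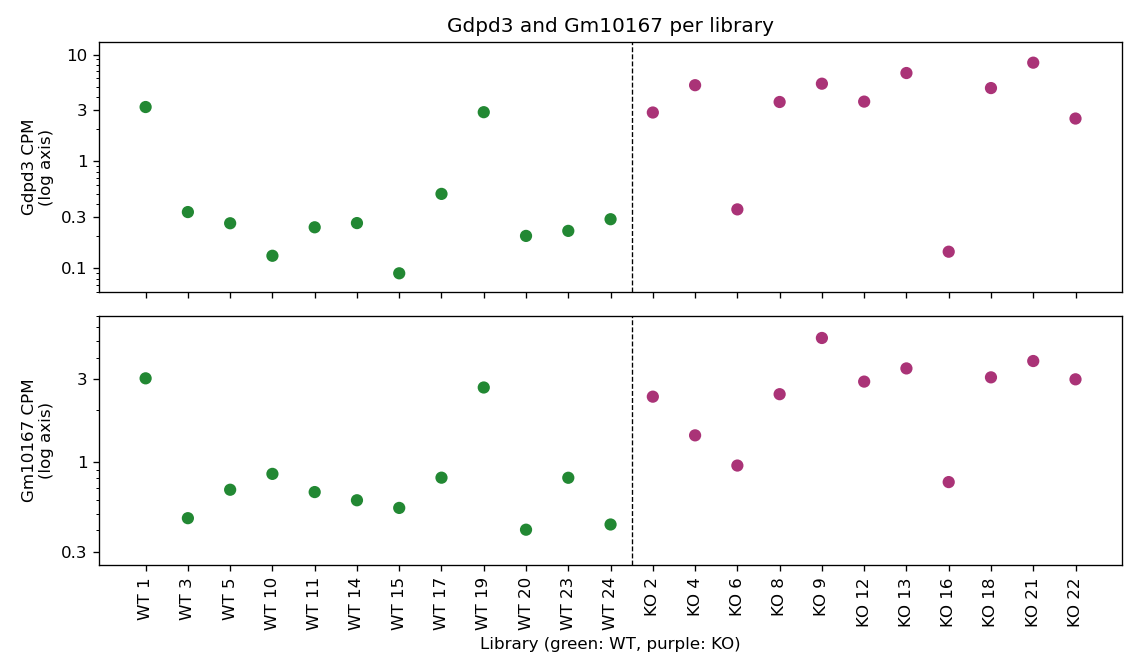
CPM of Gdpd3 (upper panel) and Gm10167 (lower panel) in each library on log axes, WT in green and KO in purple. WT 1, WT 19 and 9 KO libraries lie at 2.52 CPM or more for Gdpd3, and the same libraries lie at 1.42 CPM or more for Gm10167.

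Gdpd3 averaged 0.721 ± 1.1 CPM over WT libraries (SD, n = 12) and 3.96 ± 2.5 CPM over KO libraries (SD, n = 11), a log2 fold change of 2.47 (SE 0.602, adjusted p = 0.781, edgeR). Gm10167 averaged 0.999 ± 0.888 CPM over WT libraries (SD, n = 12) and 2.68 ± 1.31 CPM over KO libraries (SD, n = 11), a log2 fold change of 1.42 (SE 0.364, adjusted p = 0.781, edgeR). Neither passed the threshold. Each genotype had libraries on both sides of both gaps.

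Of the genes of glycerophosphodiester and lysophosphatidic acid metabolism that surround Gdpd3 in its pathway, 18 of 21 were tested. In edgeR 0 passed the threshold, with 0 at an unadjusted p below 0.05. Over all genes tested the shares were 0.0126% and 5.74%, so nothing is read from these zeros. The median log2 fold change was 0.00984, against 0.00309 over all genes. The smallest p-values belonged to the family member Gdpd2, at 0.42 (SE 0.224, adjusted p = 0.781, edgeR), and to Napepld, a phospholipase D of N-acyl ethanolamine synthesis, at -0.24 (SE 0.13, adjusted p = 0.781, edgeR).

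The steps of Gdpd3 and Rps13-ps1 coincided in most libraries. Of the 11 libraries above the Gdpd3 gap, 9 were above the Rps13-ps1 gap, and 0 libraries were above for Rps13-ps1 alone. WT 1 and KO 2 were above for Gdpd3 only, at 3.23 and 2.87 CPM, and held 4.47 and 5.56 CPM of Rps13-ps1. Both lay with the high libraries for Gm10167 too, at 3.04 and 2.38 CPM. For Rps13 the same libraries were among the highest, KO 2 at 103 CPM. The 5 choroid plexus-rich libraries fell on both sides: KO 2 and 12 above and WT 14, WT 17 and KO 6 below the Gdpd3 gap.

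**Figure D3:**
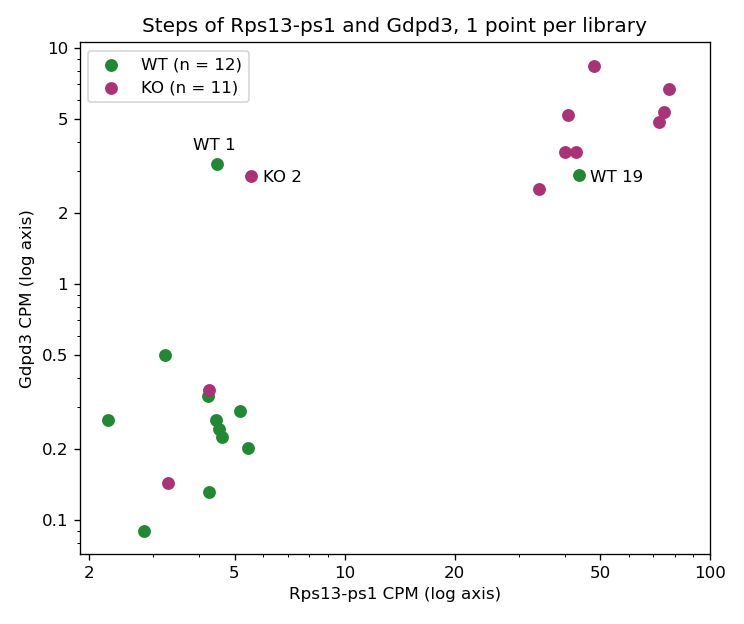
CPM of Rps13-ps1 (x axis) against CPM of Gdpd3 (y axis) on log axes, 1 point per library, WT in green (n = 12) and KO in purple (n = 11). WT 1 and KO 2 are high for Gdpd3 and low for Rps13-ps1, 9 libraries are high for both and 12 are low for both.

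Likeness of pattern was measured as Pearson's r of log2 CPM over the 23 libraries. It pools both genotypes, so a difference between genotypes enters r, and r within a genotype was not computed. It is given as a description with no p because genotype and, for the members with steps, the steps themselves group the points. Among the members it was 0.925 between Gdpd3 and Gm10167 (Spearman's rho 0.828), 0.875 between Gdpd3 and Rps13-ps1 (rho 0.788), -0.907 between Rps13 and Rps13-ps1 (rho -0.801) and 0.932 between Rps13 and Rps13-ps2 (rho 0.749). The Rps13 family shares similar sequence, so its values are not independent of each other.

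Outside the members, the genes most like Rps13 were Dctn5, a dynactin subunit (r = 0.924, rho 0.797), Rps15a, another small-subunit ribosomal protein (r = 0.874, rho 0.79), and Slx1b, an endonuclease subunit (r = 0.795, rho 0.571). All are on chromosome 7, at starts of 122133041, 118104372 and 126689468. The same genes led for Rps13-ps1 with the sign turned, at r = -0.854 for Dctn5, -0.818 for Slx1b and -0.773 for Rps15a. For Rps13-ps2 they were Dctn5 (r = 0.92), Slx1b (0.872) and Tmc7 (0.834), a membrane protein gene on chromosome 7 at 118535841. KO 9, 13 and 18 were the 3 lowest libraries for Dctn5, at 45.9 to 47.3 CPM against 54.7 to 77.0 CPM elsewhere, and for Tmc7, at 6.46 to 7.22 CPM against 10.4 to 18.5 CPM. They were not the 3 lowest for the other named genes: those were KO 9, 18 and 22 for Rps15a, with KO 13 next at 106 CPM, and KO 18, 13 and 21 for Slx1b, with KO 9 next at 11.4 CPM. Rps15a has processed copies 98.7% identical to it and Dctn5 one 93.3% identical, so their values are uncertain.

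Gdpd3 and Gm10167 shared P2ry14, a receptor gene on chromosome 3, as the most alike non-member (r = 0.782 and 0.813). P2ry14 was low throughout, at 0.951 to 3.05 CPM, and did not divide the libraries as Gdpd3 did. KO 16, below the Gdpd3 gap, held 1.71 CPM of P2ry14, and KO 18, above that gap, held 1.72 CPM. The next for Gdpd3 were Slx1b (r = -0.777), which starts 0.0769 Mb away, and Itgam (r = -0.761), an integrin gene of microglia that starts 1.3 Mb away. Itgam is 99.9% identical to Gm49368 over 3453 bases on the same strand, so its value is uncertain too. The next for Gm10167 were ENSMUSG00000094114 (r = -0.765), which has no entry in the annotation used, and Mutyh, a DNA repair gene on chromosome 4 (r = 0.759). Mutyh was low too, at 1.01 to 2.23 CPM.

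Chromosome 7 held 1165 of the tested genes, 7.36%. Of the tested non-members with an r of at least 0.6 in size, it held 18 of 37 for Rps13-ps1, 17 of 37 for Rps13, 14 of 25 for Rps13-ps2, and 11 of 26 each for Gdpd3 and Gm10167. For Gm4737 it held 7 of 38 and for Ahcy 1 of 68. Rps13-ps1 on chromosome 8 and Gm10167 on chromosome 5 thus had about as many alike genes on chromosome 7 as the members located there. Of the tested genes starting within 1 Mb, 1 of 70 reached 0.6 for Gdpd3 (Slx1b), 1.43% against 0.164% of all tested non-members. The counts were 0 of 7 each for Rps13, Rps13-ps1 and Rps13-ps2, 0 of 30 for Ahcy, 0 of 9 for Gm4737 and 0 of 14 for Gm10167, where 0.158% to 0.43% of all genes did, so nothing is read from these zeros. The median size of r was 0.276 over the 7 genes near Rps13, against 0.138 over all genes, and 0.142 over the 70 near Gdpd3, against 0.14. Near Rps13-ps1 it was 0.175 against 0.144, near Ahcy 0.218 against 0.207 and near Gm4737 0.254 against 0.186. It was lower than over all genes near Rps13-ps2 (0.0588 against 0.119) and near Gm10167 (0.0865 against 0.128).

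Ahcy and Gm4737 did not show steps. The largest gap of Ahcy was 0.0714 (log2), smaller than that of 74.1% of tested genes, and that of Gm4737 was 0.196, with 21.9% above it. The data go against a step-like label for this pair, whose values form a continuous spread. Over all 7 members, 3 had a gap of at least 1 (Rps13-ps1, Gdpd3 and Rps13-ps2), where 1.01% of tested genes did, and nothing is read from this count because the gaps chose the genes. Rps13 and Gm10167, at 0.579 and 0.589, were the next below. The lower side of the Rps13-ps2 gap is at 0 counts, so its size depends on the pseudocount: 1.04 with 0.5 and 3.52 with 0.05.

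**Figure D4:**
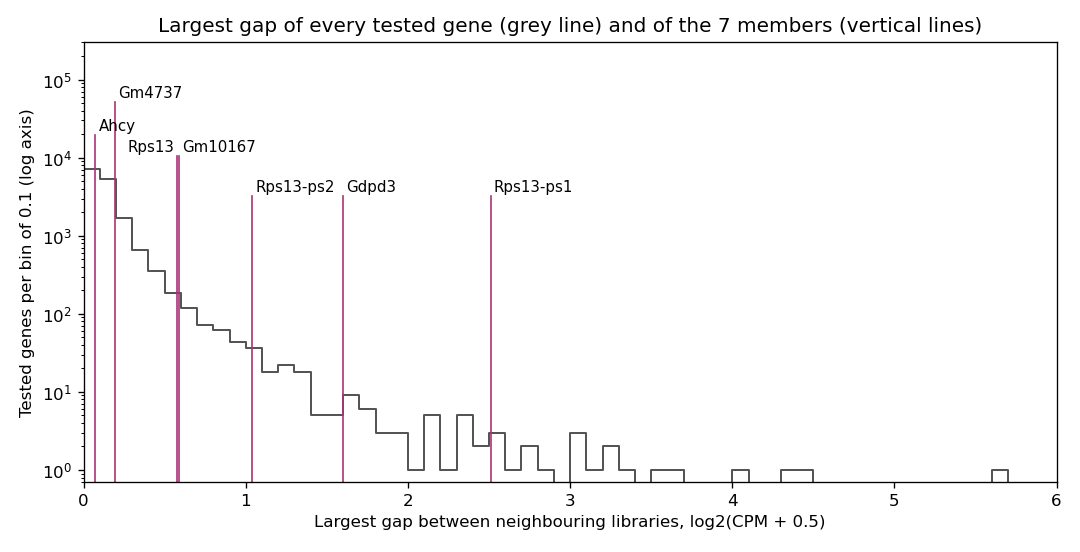
The number of tested genes (y axis, log scale) by their largest gap between neighbouring libraries (x axis, log2(CPM + 0.5), bins of 0.1, at least 2 libraries on each side), with vertical lines at the members. Rps13-ps1 at 2.51, Gdpd3 at 1.6 and Rps13-ps2 at 1.04 lie in the sparse right part, and Ahcy at 0.0714 lies among the bulk of genes, whose median is 0.108.

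Gm4737 was higher in most KO libraries than in most WT libraries. WT values were 3.21, 4.63 and 8.26 CPM and KO values 6.41, 8.49 and 10.5 CPM (lowest, median and highest). WT 5 and WT 20, at 7.93 and 8.26 CPM, lay inside the KO range, and the other 10 WT libraries, up to 5.9 CPM, lay below every KO library. Ahcy overlapped fully, with 20.7, 25.6 and 28.3 CPM in WT and 18.9, 22.2 and 31.9 CPM in KO. Across libraries the pair had an r of -0.498 (rho -0.501).

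The sum of Ahcy and Gm4737 varied little in WT, from 27.8 to 31.9 CPM with a coefficient of variation of 4.06%, against 9.43% for Ahcy and 33.1% for Gm4737. In KO libraries it ran from 29.2 to 42.4 CPM with a median of 30.6 CPM. Its coefficient of variation there was 11.9%, against 17.1% for Ahcy and 16.7% for Gm4737. Over all 23 libraries it was 9.91%, against 13.3% and 36.2%. KO library 8, the library rich in hypothalamic genes, had the highest Ahcy, Gm4737 and sum of all 23 libraries, and the part of that tissue in these values was not tested. Without KO library 8 the KO sum ran from 29.2 to 36.1 CPM, with a coefficient of variation of 7.26%. Gm4737 took 10.2% to 28.5% of the summed counts in WT (mean 16.9% ± 5.84, SD, n = 12) and 19.4% to 35.4% in KO (mean 27.3% ± 5.44, SD, n = 11).

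**Figure D5:**
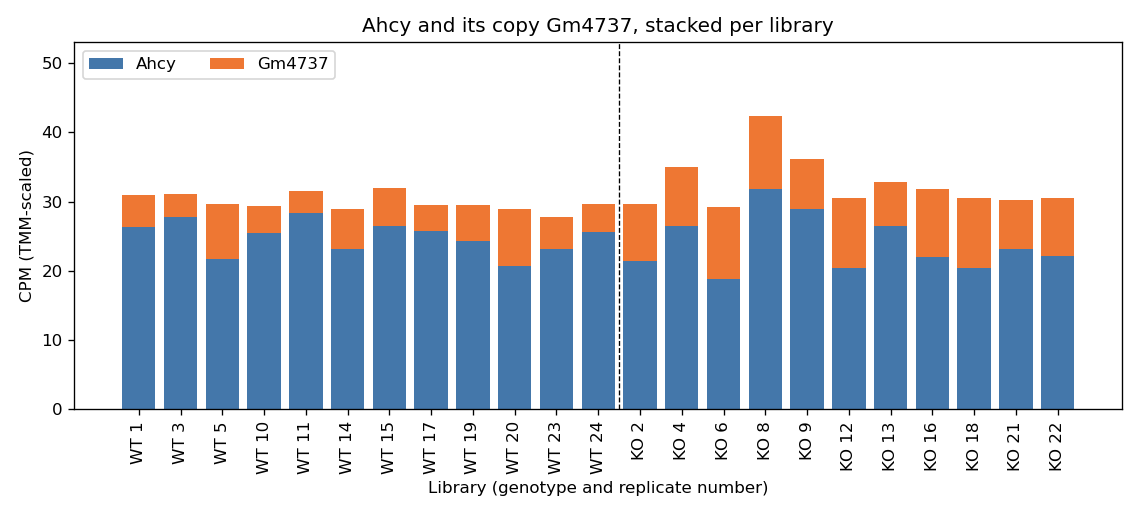
CPM of Ahcy and Gm4737 stacked for each of the 12 WT and 11 KO libraries, with the dashed line between genotypes. WT totals lie between 27.8 and 31.9 CPM, and KO 8, at 42.4 CPM, is the tallest bar.

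Gm4737 averaged 5.02 ± 1.66 CPM over WT libraries (SD, n = 12) and 8.8 ± 1.47 CPM over KO libraries (SD, n = 11), a log2 fold change of 0.81 (SE 0.149, adjusted p = 0.0717, edgeR), the third smallest p of all genes tested. It passed the threshold with DESeq2 (adjusted p = 0.000385) and with limma voom (adjusted p = 0.0204), and in edgeR when WT 5 (0.0103), WT 20 (0.00641) or KO 13 (0.0446) was left out. Over all its alternatives the adjusted p ran from 0.000385 to 0.336. Ahcy changed by -0.06 (SE 0.0788, adjusted p = 0.858, edgeR), and by 0.0041 without the 5 choroid plexus-rich libraries. The sum changed by 0.13 (SE 0.0517, adjusted p = 0.782, edgeR), from 29.9 ± 1.21 CPM over WT libraries (SD, n = 12) to 32.6 ± 3.89 CPM over KO libraries (SD, n = 11), and by 0.0872 without KO library 8.

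The other genes of the methionine cycle and its methyltransferases were read beside Ahcy. Of 23 listed genes 18 were tested, 0 passed the threshold in edgeR and 0 had an unadjusted p below 0.05. Of all genes tested 0.0126% and 5.74% did, so these zeros are not read as a result about the list. The median log2 fold change was 0.0096. The 2 genes with the smallest p were Mtrr, which reactivates methionine synthase, at -0.14 (SE 0.0935, adjusted p = 0.781, edgeR), and Pemt, which methylates phosphatidylethanolamine, at 0.21 (SE 0.143, adjusted p = 0.781, edgeR). Ahcyl1, a relative of Ahcy, changed by 0.005 (SE 0.0361, adjusted p = 0.973, edgeR). The further Ahcy copies Gm9826 and Gm5638 were too low to be tested. Adding them left the sum at 0.13 (SE 0.0513).

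The genes most like Gm4737 were Ccnd1 on chromosome 7 (cyclin D1, r = -0.767, rho -0.707), Gm12394 on chromosome 4 (r = -0.747, rho -0.786) and Zfp664 on chromosome 5 (r = -0.708, rho -0.671). Ccnd1 was itself called lower in KO (log2 fold change -1.15, SE 0.0661, adjusted p = 5.71e-11, edgeR). Those most like Ahcy were Gm43032 (r = -0.747), Bin3 (r = -0.74) and Usp3 (r = -0.703), on chromosomes 5, 14 and 9. Among chromosome 7 genes with an r of at least 0.6 in size, Ccnd1 was also listed for Gdpd3, Rps13-ps1 and Gm10167.

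Across the whole table edgeR called 2 of 15828 genes at an adjusted p below 0.05, 0.0126%, and 0 of the 7 members. DESeq2 called 2 members, Gm4737 and Rps13-ps1, and voom called 1, Gm4737. At an unadjusted p below 0.05 there were 6 members, 4 higher and 2 lower in KO, against 5.74% of all genes tested (3.41% higher, 2.34% lower). Because the members were chosen with such results known, nothing is read from that share. With gene and copies summed before the fit, the count of called genes was again 2 of 15825, 0.0126%, and neither sum was called in edgeR, DESeq2 or voom. In that fit 5.73% of rows had an unadjusted p below 0.05, 3.4% higher and 2.33% lower in KO, and the sum of Ahcy and Gm4737, higher in KO, was among them.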

How the data were processed

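The deposited table holds the authors' estimated counts per gene in 23 libraries; per library, 24.6% to 27.2% of values above 0 are fractional. The submitters' processing notes name bcl2fastq, STAR and mm10, and the labels' protocols name a stranded mRNA kit. The counting program, its use of strand and the annotation are not given in the sources used here. Columns were matched by library name, with 0 left over. Positions and transcripts came from GENCODE M21 (GRCm38), matched by gene identifier, and similar transcripts from blastn 2.17.0 with at least 90% identity over 150 bases.

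Counts were rounded and tested in edgeR 4.0.16 (R 4.3.3) with filterByExpr, TMM scaling and the robust quasi-likelihood F test, Benjamini-Hochberg adjusted over all genes tested. Standard errors came from the fold change and F. Sums of gene and copies replaced their rows in a second fit. Copy shares used unrounded counts. A step is the largest gap in log2(CPM + 0.5) between neighbouring libraries with at least 2 on each side. Likeness is r of log2 CPM (prior count 2), naming the 3 most alike genes per member and neighbours within 1 Mb with an r of at least 0.6.

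The members and lists were chosen with earlier results of these data known. Named genes were the members, their most alike genes, Ins2, and the 2 genes with the smallest p in each of 3 pathway lists; Ahcyl1 and the further copies were named after their values were seen. The 8 marker lists served to check the tissue. Those not given above summed to 241 CPM in KO library 8 against 620 to 847 CPM elsewhere for CA1 and CA3 cells, and over all libraries to 3390 to 8290 CPM for oligodendrocytes, 270 to 403 CPM for microglia, 1120 to 1750 CPM for astrocytes and 50.9 to 128 CPM for endothelium. Alternatives were RLE scaling, DESeq2 1.42.0, limma 3.58.1 voom with quality weights, no filter, a filter on a mean of 50 counts, unrounded counts, and leaving out each library. Some results are not reported here.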

Additional observations from a re-analysis of the deposited data

How the results depend on the processing

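Of the alternatives, those without the choroid plexus-rich libraries and those with further copies in the sums were chosen after seeing the data. The count of called genes, 2, became 4 with DESeq2 and 4 with voom, 1 when a mean of 50 counts was required, and 1 without the choroid plexus-rich libraries. With copies summed it became 1 under each of the last 2 settings. Leaving out 1 library at a time gave 2 to 3 genes, and 2 in each fit with copies summed. That requirement left Gdpd3 and Gm10167 untested, and Gdpd3 did not pass filterByExpr without WT library 1 or WT library 19. Ahcy changed sign to 0.0041 without the choroid plexus-rich libraries; the cause was not tested. Rps13-ps2 went from -1.25 to -3.37 with voom; the cause was not tested. Its gap went from 1.04 to 3.52 with a pseudocount of 0.05. All other signs held in the alternatives run. The gaps of Gdpd3, Rps13, Rps13-ps1, Rps13-ps2 and Gm10167 separated the same libraries with library totals, with the smaller pseudocount and with 1 library allowed on a side. The last setting moved those of Ahcy and of both sums (Ahcy plus Gm4737 from 0.0842 to 0.228), and library totals that of Gm4737. No paired analysis was possible because no replicate number occurs in both genotypes. At 2 to 8 counts, differences of Gdpd3 among its low libraries were not detectable at this depth.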
